A study of Mus musculus with 6 samples.

Results

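The alcohol and aldehyde dehydrogenases described here are 10 genes of mouse liver, Adh1, Adh4, Adh5, Aldh1b1, Aldh1l1, Aldh2, Aldh3a2, Aldh7a1, Aldh8a1 and Aldh9a1, out of 19938 genes with a probe set of their own in the series. They were chosen by name, as the probe sets annotated with a single symbol among these 10, and each gene had 1 such probe set. Liver RNA was taken from female C57BL/6 mice, 3 months old and deprived of food for 6 h before death. Of the 6 mice, 3 were LmnaG609G/G609G knock-in (replicates 1, 3 and 5, called KI1, KI3 and KI5) and 3 were wild-type (replicates 2, 4 and 6, called WT2, WT4 and WT6), with 1 array per mouse. The allele is a point change in Lmna, the gene of lamins A and C, that alters splicing. It is carried by every cell of the animal, not by hepatocytes alone, and such mice serve as a model of Hutchinson-Gilford progeria. All values are intensities of the authors' deposited table on a linear scale, and each probe set has its own brightness, so that levels of different genes cannot be compared.

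Alcohol dehydrogenases move hydrogen from an alcohol to NAD+ and so make an aldehyde, and aldehyde dehydrogenases turn an aldehyde into an acid. Hepatocytes use this pair of steps to clear ethanol, and the same chemistry handles retinol, formaldehyde, fatty aldehydes and the semialdehydes of amino acid breakdown. Each enzyme has its own substrates, so the 10 genes stand in different pathways that share a kind of reaction.

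All 10 members passed the filter on dim probe sets, and 7 were called different between the genotypes by limma (adjusted p below 0.05), 6 lower and 1 higher in knock-in liver. Over all 26664 probe sets tested, 6904 or 25.9% were called, 10.9% lower and 15.0% higher. The total was 7759 without KI3, 4258 without KI1, 4497 without WT2 and 4552 without WT6. Of the members, 9 had a mean intensity of 1000 or more, and among the 3839 tested probe sets that bright, a subset chosen after seeing the data, 44.1% were called, 21.1% lower and 23.0% higher. The median log2 change was -0.28 over the members and 0.03 over all tested probe sets. The falls were of unequal size. Adh4, Aldh3a2, Aldh1b1 and Aldh9a1 fell by 2.06-fold to 6.16-fold, whereas Aldh2 fell by 1.18-fold and Aldh7a1 by 1.24-fold. Called falls of at least 2-fold were seen in 4 of the 10 members and in 2.72% of all tested probe sets. The genotypes did not overlap for 8 of the 10 members, and for 41.2% of all tested probe sets.

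**Figure D1:**
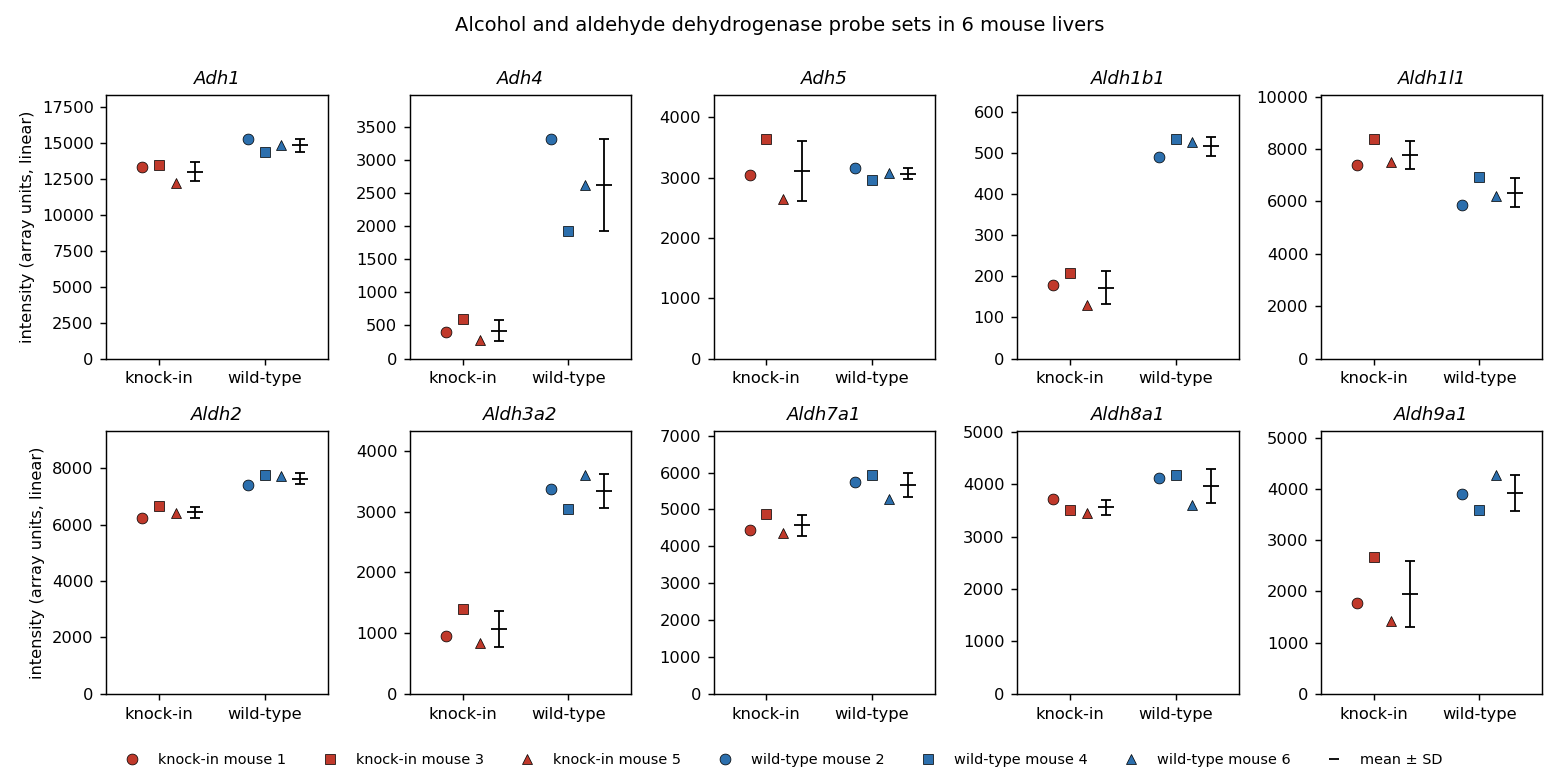
Intensity (array units, linear axis from 0) of each of the 10 dehydrogenase probe sets, with 1 point per mouse, knock-in at the left and wild-type at the right of each panel, and the mean ± SD of 3 mice beside the points. Adh4, Aldh3a2, Aldh1b1 and Aldh9a1 lie far below wild-type in all 3 knock-in mice, whereas Adh5 and Aldh8a1 overlap between the genotypes.

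The promoter windows of the 4 members that fell by at least 2-fold are shown with that of Adh1, a gene of the same cluster as Adh4 whose change was small, so that their sequences can be read beside these unequal changes. Windows run from 250 bases before to 50 bases after a start site, come from RefSeq with build GRCm38.p6, and are written 5′ to 3′ in the direction of the gene. Capitals mark matches to the motifs named after the sequences. Windows were matched for 8 of the 10 members, 9 windows in all, and none was available for Aldh2 or Aldh7a1.
Adh4 (chr3:138415247-138415546, plus strand): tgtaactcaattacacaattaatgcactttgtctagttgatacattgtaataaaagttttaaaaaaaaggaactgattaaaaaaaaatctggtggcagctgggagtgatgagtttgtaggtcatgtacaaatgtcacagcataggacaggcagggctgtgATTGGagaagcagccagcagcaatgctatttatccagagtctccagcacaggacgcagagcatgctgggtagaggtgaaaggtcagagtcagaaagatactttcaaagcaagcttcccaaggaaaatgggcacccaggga
Aldh3a2 (chr11:61267137-61267436, minus strand): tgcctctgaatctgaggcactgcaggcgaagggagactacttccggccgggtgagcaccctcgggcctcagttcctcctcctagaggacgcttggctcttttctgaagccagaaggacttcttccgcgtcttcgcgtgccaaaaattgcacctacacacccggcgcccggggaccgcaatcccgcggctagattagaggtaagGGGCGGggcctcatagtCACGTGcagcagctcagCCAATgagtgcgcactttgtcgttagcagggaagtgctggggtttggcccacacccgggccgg
Aldh1b1 (chr4:45798772-45799071, plus strand): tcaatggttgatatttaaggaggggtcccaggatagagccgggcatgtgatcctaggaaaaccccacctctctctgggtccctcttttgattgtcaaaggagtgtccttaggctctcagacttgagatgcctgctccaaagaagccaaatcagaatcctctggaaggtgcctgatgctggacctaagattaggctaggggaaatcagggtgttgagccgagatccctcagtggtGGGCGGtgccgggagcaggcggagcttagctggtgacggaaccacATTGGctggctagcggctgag
Aldh9a1 (chr1:167349741-167350040, plus strand): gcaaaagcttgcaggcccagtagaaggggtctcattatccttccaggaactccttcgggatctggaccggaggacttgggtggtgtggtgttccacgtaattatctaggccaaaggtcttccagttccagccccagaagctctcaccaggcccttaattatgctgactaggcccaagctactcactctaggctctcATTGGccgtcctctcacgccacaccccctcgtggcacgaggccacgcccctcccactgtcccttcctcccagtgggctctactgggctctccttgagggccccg
Adh1 (chr3:138277335-138277634, plus strand): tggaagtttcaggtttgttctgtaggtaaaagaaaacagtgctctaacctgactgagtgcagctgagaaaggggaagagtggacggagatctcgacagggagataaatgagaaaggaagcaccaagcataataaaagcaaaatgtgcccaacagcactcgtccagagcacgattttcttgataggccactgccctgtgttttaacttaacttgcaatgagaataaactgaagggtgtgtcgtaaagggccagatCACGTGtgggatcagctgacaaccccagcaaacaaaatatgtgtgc

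Both strands were searched for 7 motifs. CCAAT was found in 5 of the 9 windows and in 37.4% of all 32851 RefSeq windows, and the 5 were those of Adh4, Aldh3a2, Aldh1b1, Aldh9a1 and Aldh1l1. In Adh4, Aldh1b1, Aldh9a1 and Aldh1l1 it lay on the opposite strand, where the window reads ATTGG, and in Aldh3a2 the window reads CCAAT. The match in Aldh1b1 lay after the start site, from base 30. The GC box GGGCGG was found in 4 of the 9 windows (35.7% of all), those of Aldh3a2, Aldh1b1 and Aldh1l1 and 1 window of Adh5. The E-box CACGTG was found in 2 of the 9 (7.15% of all), those of Adh1 and Aldh3a2, and the TATA box TATAAA in 1 window of Adh5 (13.6% of all). No window of a member held the D-box TTATGTAA (0.938% of all), the DR1 element (0.0396% of all) or the glucocorticoid response element (0.00913% of all). No matches overlapped each other in the 5 windows shown. The windows of Adh4 and Adh1 were 42.3% and 45.3% G and C, those of Aldh3a2, Aldh9a1 and Aldh1b1 61.7%, 59.0% and 54.7%, and the median over all windows was 52.7%. A match is a stretch of letters and does not show that a factor binds there.

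Among the alcohol dehydrogenases, Adh4 encodes the class II enzyme, which oxidises ethanol and retinol. It gave 396, 590 and 276 in knock-in livers, against 3313, 1929 and 2615 in wild-type ones. Every knock-in value lay far below the lowest wild-type value, and the spread was wide within both genotypes. The mean was 421 ± 158 in knock-in and 2619 ± 692 in wild-type liver (SD, n = 3 each), so that knock-in liver held 16.1% of the wild-type intensity. The log2 change was -2.62 ± 0.29 (SE; 6.16-fold lower; limma adjusted p = 0.00128), and 0.214% of all tested probe sets had a larger fall.

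Adh1 encodes the class I enzyme, which carries most of the ethanol oxidation in liver and also oxidises retinol. Its probe set gave 13319, 13505 and 12261 in knock-in livers, against 15284, 14391 and 14863 in wild-type ones. All knock-in values lay below all wild-type values, yet the distance was small, with means of 13028 ± 671 in knock-in and 14846 ± 447 in wild-type liver. The log2 change of -0.19 ± 0.06 (SE; 95% interval -0.33 to -0.05) was not called (limma adjusted p = 0.0568). It was called when KI3 was left out (adjusted p = 0.0460), with arrays centred on their medians (0.0384), with a stricter filter on dim probe sets (0.0391) and with array weights (0.0310). The brightest probe sets of the arrays read between 23345 and 24988, and whether a probe set as bright as that of Adh1 responds in proportion to its transcript was not tested.

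Adh5 encodes the class III enzyme, which oxidises the adduct of formaldehyde with glutathione and reduces S-nitrosoglutathione. It gave 3043, 3638 and 2644 in knock-in livers, against 3157, 2969 and 3079 in wild-type ones. The knock-in mice lay on both sides of the wild-type ones and were more spread out (SD 500.2 in knock-in and 94.5 in wild-type). The log2 change was 0.01 ± 0.12 (SE; 95% interval -0.28 to 0.29; limma adjusted p = 0.978), and its sign turned with arrays centred on their medians (-0.045) and with array weights (-0.015).

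The alcohol dehydrogenase genes are neighbours. The RefSeq annotation of GRCm38.p6 places them in the order Adh7, Adh1, Adh6a, Adh6b, the pseudogene Adh6-ps1, Adh4 and Adh5, so that Adh4 lies beside a gene, Adh5, that was not called. Adh6-ps1, named after its values were seen, gave 99, 83 and 58 in knock-in livers, against 231, 178 and 378 in wild-type ones (log2 change -1.50 ± 0.27, SE; limma adjusted p = 0.00694). Its probes may share sequence with other genes of the cluster. Adh7, of class IV (0.01 ± 0.12), Adh6a (0.01 ± 0.07) and Adh6b (0.39 ± 0.19) were not called, though Adh6b was called higher without KI1 (adjusted p = 0.0325). A dimmer probe set of Adh6b, at 39 to 51, was not called either (0.09 ± 0.08). Adh6a read 43 to 50 and Adh6b 33 to 74 over the mice, below the array medians of 97.0 to 104. Whether such dim signals stand above background was not tested. The signs of Adh7 and Adh6a turned with quantile normalization (-0.036 and -0.045) and with centred arrays (-0.045 and -0.042).

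The mitochondrial enzymes that oxidise acetaldehyde moved to different degrees. Aldh1b1, a relative of Aldh2 that accepts acetaldehyde and retinaldehyde, gave 180, 208 and 130 in knock-in livers, against 490, 534 and 526 in wild-type ones. The wild-type mice were nearly equal, and all knock-in mice were far below them. Its means were 173 ± 39.5 in knock-in and 517 ± 23.4 in wild-type liver, a log2 change of -1.52 ± 0.16 (SE; 2.87-fold lower; limma adjusted p = 0.00110). Aldh2, the main acetaldehyde-oxidising enzyme, gave 6251, 6650 and 6420 in knock-in livers, against 7394, 7772 and 7724 in wild-type ones. Here too the genotypes did not overlap, but the means of 6440.3 ± 200.3 in knock-in and 7630.0 ± 206 in wild-type liver were closer, with a log2 change of -0.24 ± 0.06 (SE; 1.18-fold lower; limma adjusted p = 0.0270). Aldh2 remained called without KI3. Its adjusted p was 0.0930 without KI1, 0.0739 without KI5, and 0.0600, 0.0637 and 0.103 without WT2, WT4 and WT6.

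Aldh3a2 encodes the fatty aldehyde dehydrogenase, whose loss causes Sjögren-Larsson syndrome in humans. It gave 960, 1396 and 832 in knock-in livers, against 3364, 3046 and 3608 in wild-type ones. KI3 was the knock-in mouse nearest to wild-type and still lay far below the lowest wild-type value. The means were 1063 ± 296 in knock-in and 3339 ± 282 in wild-type liver, a log2 change of -1.67 ± 0.19 (SE; 3.18-fold lower; limma adjusted p = 0.00130). Aldh9a1 oxidises trimethylaminobutyraldehyde to butyrobetaine on the way to carnitine. It gave 1768, 2676 and 1431 in knock-in livers, against 3910, 3581 and 4281 in wild-type ones. The genotypes did not overlap, with means of 1958 ± 644 in knock-in and 3924 ± 350.2 in wild-type liver (log2 change -1.04 ± 0.21, SE; 2.06-fold lower; limma adjusted p = 0.0112). Without KI3, the highest knock-in mouse, the log2 change of Aldh9a1 was -1.29.

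Members that act in amino acid and folate pathways moved little. Aldh7a1, which oxidises the aminoadipic semialdehyde of lysine breakdown and also betaine aldehyde, gave 4451, 4876 and 4368 in knock-in livers, against 5744, 5944 and 5293 in wild-type ones. All knock-in values were below all wild-type values, and the log2 change was -0.31 ± 0.08 (SE; 1.24-fold lower; limma adjusted p = 0.0279). Its adjusted p was 0.0950 and 0.0850 without KI1 and KI5, and 0.0915 and 0.0751 without WT2 and WT4. Aldh8a1, which oxidises aminomuconic semialdehyde in the kynurenine pathway, gave 3722, 3500 and 3442 in knock-in livers, against 4116, 4181 and 3599 in wild-type ones. The genotypes overlapped, and the log2 change of -0.15 ± 0.09 (SE; 95% interval -0.36 to 0.05) was not called (limma adjusted p = 0.248).

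Aldh1l1, the cytosolic enzyme that releases the carbon of formyltetrahydrofolate as carbon dioxide, was the member called higher. It gave 7409, 8380 and 7509 in knock-in livers, against 5853, 6943 and 6215 in wild-type ones. The lowest knock-in mouse was above the highest wild-type mouse, with means of 7766 ± 534 in knock-in and 6337 ± 555 in wild-type liver. The log2 change was 0.29 ± 0.09 (SE; 1.23-fold higher; limma adjusted p = 0.0458), close to the threshold. Its adjusted p was 0.0838, 0.0902 and 0.0835 without KI1, KI3 and KI5, and 0.145 and 0.131 without WT2 and WT6. The call was also lost with centred arrays (adjusted p = 0.0643), with no filter (0.0671) and with eBayes without trend (0.0618).

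Across the mice, KI3 had the highest knock-in value for 9 of the 10 members and KI5 the lowest for 8. Over all tested probe sets these mice held those places for 37.9% and 30.3%. For the members that fell most, KI3 stood above the mean of the other knock-in mice by 0.81 for Adh4, 0.74 for Aldh9a1, 0.63 for Aldh3a2 and 0.41 for Aldh1b1 on the log2 scale, that is, nearer to wild-type. For Aldh1l1 it was the knock-in mouse farthest from wild-type. Without this mouse 7 members were called lower, and without any single other mouse 4 or 5 were. Over all tested probe sets, calls in either direction numbered 7759 without KI3 and 4258 to 5335 without any single other mouse.

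Isozymes that share a kind of substrate were set against each other within each mouse, as the difference of their log2 values relative to the wild-type mean of that difference. Of the 4 pairs compared, Adh1 minus Adh4 stood at 2.49, 1.95 and 2.86 in knock-in livers, against -0.33, 0.36 and -0.03 in wild-type ones. The Adh4 signal was thus further down than that of Adh1 in every knock-in mouse, with a difference of 2.43 ± 0.33 (SE). Whether the bright probe set of Adh1 responds in proportion to its transcript was not tested. Adh4 minus Adh5 changed by -2.63 ± 0.26 (SE) and Adh1 minus Adh5 by -0.20 ± 0.10 (SE). Aldh2 minus Aldh1b1 stood at 1.15, 1.05 and 1.62 in knock-in livers, against 0.03, -0.02 and -0.01 in wild-type ones, a difference of 1.27 ± 0.17 (SE). The genotypes did not overlap for any of the 4 pairs. Of all tested single probe sets, 41.2% did not overlap, and the share over other pairs was not computed. The pairs among Adh1, Adh4 and Adh5 draw on the same probe sets and are not independent of each other. An exact two-sided permutation test gave p = 0.1 for each pair, also after adjustment over the 4, which is the smallest p that 3 mice against 3 allow and does not reach the threshold.

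**Figure D2:**
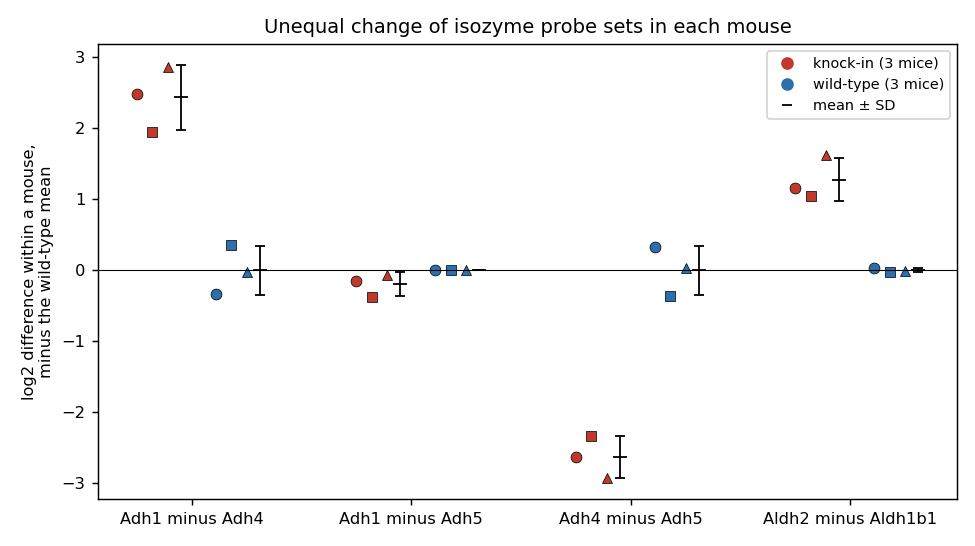
Difference of log2(intensity + 16) between the probe sets of an isozyme pair in each mouse, minus the wild-type mean of that difference, with 3 knock-in mice at the left and 3 wild-type mice at the right of each pair and the mean ± SD beside them. The knock-in mice lie between 1.95 and 2.86 for Adh1 minus Adh4 and between 1.05 and 1.62 for Aldh2 minus Aldh1b1. Both ranges lie above those of the wild-type mice. The exact permutation test gave p = 0.1 for each pair, the smallest p it allows.

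The 3 other genes whose values followed those of Adh4 most closely over the 6 arrays were Frk, a tyrosine kinase gene (Pearson r = 0.999), Prkd3, a gene of the protein kinase D family (r = 0.999), and Nmnat1, which encodes a nuclear enzyme of NAD+ synthesis (r = 0.998). Prkd3 gave 490, 575 and 362 in knock-in livers, against 1877, 1336 and 1589 in wild-type ones. Within each genotype its mice stood in the same order as for Adh4. The arrays share the difference between the genotypes, and 134 genes had an r above 0.99.

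Other genes of the alcohol and aldehyde dehydrogenase families were measured beside the members. Of 17 tested, 6 were called lower, 11 did not pass, and the median log2 change was -0.13. The share called lower was 35.3%, against 10.9% of all tested probe sets. Aldh1a7, of the retinaldehyde-oxidising subfamily, gave 356, 945 and 293 in knock-in livers, against 2117, 1920 and 1908 in wild-type ones (log2 change -2.06 ± 0.38, SE; limma adjusted p = 0.00789). Its close paralog Aldh1a1, gave 1268, 3199 and 1400 in knock-in livers, against 5887, 5503 and 5301 in wild-type ones (-1.63 ± 0.32, SE; adjusted p = 0.00936). KI3 was the highest knock-in mouse for both, and the probes of such paralogs may share signal. Aldh5a1, the succinic semialdehyde dehydrogenase of GABA breakdown, had a log2 change of -0.84 ± 0.12, Adhfe1, an iron-containing hydroxyacid dehydrogenase, -0.70 ± 0.10, and Aldh4a1, the mitochondrial enzyme of proline breakdown, -0.50 ± 0.09. Aldh3b3 passed as well (-0.78 ± 0.16), with 3 probe sets all called lower, and at the brightest of them the adjusted p was 0.0550 without KI1. Aldh1a1 and Aldh3b3 were named after their values were seen.

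**Figure D3:**
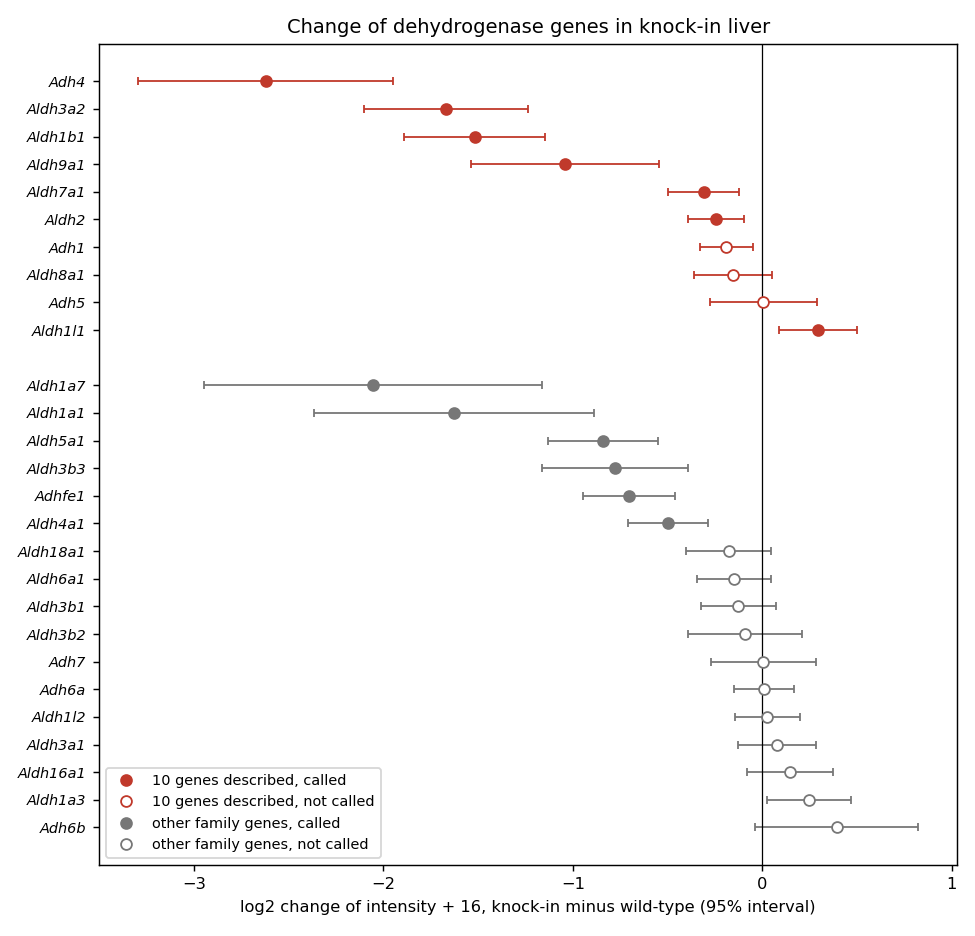
Log2 change of intensity + 16 (knock-in minus wild-type) with its 95% interval for the 10 dehydrogenases and 17 other genes of the families, marked by whether limma called them. Adh4 at -2.62 and Aldh1a7 at -2.06 show the largest falls of their groups, and Aldh1l1 at 0.29 is the called rise.

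Enzymes of the pathways in which the members act were read on the same arrays. Over 109 distinct genes tested, 47 fell, 12 rose and 50 did not pass, that is 43.1% called lower and 11.0% called higher, with a median log2 change of -0.26. Without KI1, 29 of them fell.

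On the route of ethanol to acetate and acetyl-CoA, 3 of 6 genes fell (median log2 change -0.59). Cat, the peroxisomal catalase that can oxidise ethanol, stood at 6715 ± 1439 in knock-in and 14263 ± 268 in wild-type liver, a log2 change of -1.11 ± 0.14 (SE; limma adjusted p = 0.00188). The acetyl-CoA synthetase gene Acss2 changed by -1.38 ± 0.30 and its relative Acss3 by -1.36 ± 0.30, with adjusted p of 0.0555 and 0.0610 without KI1. The acetyl-CoA thioesterase gene Acot12 did not pass (0.19 ± 0.13). Cyp2e1, on this list and that of pericentral markers and named after its values were seen, did not pass either (-0.07 ± 0.06, SE; limma adjusted p = 0.489). Of 21 other enzymes that handle aldehydes, 12 fell and 9 did not pass (median -0.54). The falls numbered 8 without KI1 or WT2, 9 without WT6, 10 without KI5 and 11 without WT4. The aldehyde oxidase genes Aox1 and Aox3 changed by -1.24 ± 0.13 and -1.80 ± 0.25, and the aldo-keto reductase genes Akr1c20 and Akr1c6, close paralogs whose probes may share signal, by -2.15 ± 0.33 and -2.16 ± 0.34. Esd, named after its values were seen, encodes the hydrolase that follows Adh5 in formaldehyde removal and changed by -0.85 ± 0.24 (limma adjusted p = 0.0393). Its adjusted p lay between 0.0922 and 0.119 without KI1 or KI5 and without WT2 or WT6, and was 0.0638 with no filter.

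Around Aldh1l1, 7 of 18 folate one-carbon genes fell and 4 rose (median -0.21), and 2 rose without KI1 or without any single wild-type mouse. The serine hydroxymethyltransferase genes Shmt1 and Shmt2, which load carbon onto folate, changed by -1.60 ± 0.12 and -1.26 ± 0.12, opposite in sign to Aldh1l1. Amt and Gcsh, of the glycine cleavage system, changed by -1.35 ± 0.22 and -0.74 ± 0.10. Gldc, of the same system and named after its values were seen, rose (0.62 ± 0.13, SE; limma adjusted p = 0.0125). Around Aldh8a1, 4 of 11 kynurenine pathway genes fell and 3 rose (median -0.38). The rises numbered 2 when KI1, KI3, WT2 or WT6 was left out, and the falls 6 when KI3 was. Acmsd, the decarboxylase that makes the substrate of Aldh8a1, stood at 1169.7 ± 89.2 in knock-in and 460.0 ± 90.3 in wild-type liver (log2 change 1.33 ± 0.15, SE; limma adjusted p = 0.00127). Ido2, an indoleamine dioxygenase, changed by -2.98 ± 0.13, Qprt, of NAD+ synthesis, by -1.14 ± 0.10, and Haao, which makes the substrate of Acmsd, by -1.03 ± 0.12. The tryptophan dioxygenase gene Tdo2, named after its values were seen, rose (0.39 ± 0.06, SE; limma adjusted p = 0.00370). It stood at 10722 ± 391 in knock-in and 8181 ± 149 in wild-type liver.

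Around Aldh7a1, 3 of 10 genes of lysine breakdown fell and 1 rose (median -0.23). Aass, which starts the breakdown of lysine in mitochondria, stood at 9201 ± 480.1 in knock-in and 4687 ± 404 in wild-type liver (log2 change 0.97 ± 0.09, SE; limma adjusted p = 0.000624). The hydroxylysine kinase gene Hykk changed by -2.26 ± 0.16, the pipecolic acid oxidase gene Pipox by -0.72 ± 0.12 and Hadh, of fatty acid and lysine oxidation, by -0.94 ± 0.21, with an adjusted p of 0.0609 without KI1. Of 10 choline and betaine genes, 3 fell and 1 rose (median -0.21), and 5 fell with centred arrays or with array weights. The choline kinase gene Chka rose to 776 ± 152 in knock-in liver, against 180.0 ± 8.66 in wild-type liver (log2 change 2.00 ± 0.15, SE; limma adjusted p = 0.000397). Chdh, which makes betaine aldehyde, changed by -0.82 ± 0.11, and Bhmt, which uses betaine to methylate homocysteine, by -0.59 ± 0.13. Pemt, which makes phosphatidylcholine, passed (-0.35 ± 0.11) but had an adjusted p of 0.0943 to 0.120 when any mouse other than KI3 was left out.

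Around Aldh9a1, 2 of 5 tested carnitine genes fell and 1 rose (median -0.54). Bbox1, which hydroxylates the butyrobetaine that Aldh9a1 makes, fell to 1264 ± 336 in knock-in liver, against 3060.0 ± 60.1 in wild-type liver (log2 change -1.30 ± 0.17, SE; limma adjusted p = 0.00225). The carrier gene Slc25a29 rose (0.46 ± 0.11), with an adjusted p of 0.0534 to 0.0746 without KI5 or without WT2 or WT6. The carnitine acetyltransferase gene Crat fell (-0.72 ± 0.20), with an adjusted p of 0.0623 to 0.0985 without any single knock-in mouse or without WT4. The carnitine transporter gene Slc22a5 did not pass (-0.54 ± 0.26) and had an adjusted p of 0.0185 without KI3.

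Around Aldh3a2, 5 of 14 genes of fatty aldehyde, sphingolipid and phytanic acid metabolism fell and 9 did not pass (median -0.19). Cyp4f14, a fatty acid hydroxylase, changed by -1.11 ± 0.12 and Pecr, a peroxisomal enoyl-CoA reductase, by -1.35 ± 0.24. Phyh, which starts the oxidation of phytanic acid (-0.26 ± 0.07), and Agmo, which cleaves ether lipids into fatty aldehydes (-0.73 ± 0.21), passed as well. Of the 14 genes, 2 fell without KI1 or KI5 or without WT2 or WT6, and 3 fell without WT4. Of 15 genes of the retinol to retinoic acid route, 8 fell and 2 rose (median -0.52), with 4 falls when KI1 was left out, and with 5 falls when KI5 or any single wild-type mouse was left out. The retinaldehyde reductase gene Dhrs3 changed by -1.56 ± 0.15, its relative Dhrs4 by -1.28 ± 0.19, the retinol dehydrogenase family gene Rdh13 by 0.82 ± 0.13 and the retinoic acid hydroxylase gene Cyp26a1 by 3.89 ± 0.25.

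**Figure D4:**
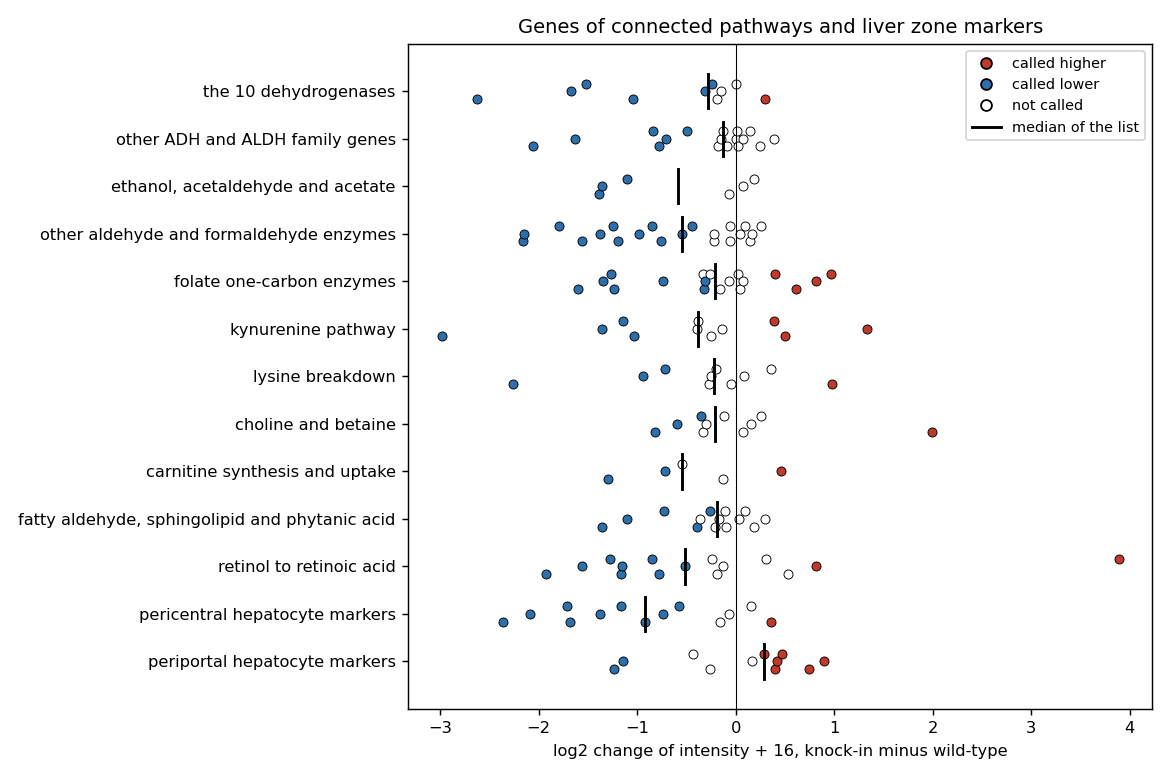
Log2 change of intensity + 16 (knock-in minus wild-type) of each tested gene of the 10 dehydrogenases, of lists of related genes and of liver zone markers, with each gene marked by its call and each list by its median. The medians of the pathway lists lie between -0.59 and -0.19, and that of the other family genes at -0.13. The median of the pericentral markers lies at -0.92 and that of the periportal markers at 0.29.

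Markers of liver zones and cell types were read on the same arrays. Of the 90 tested, 26.7% were called lower and 15.6% higher, against 10.9% and 15.0% of all tested probe sets. Hepatocyte markers were bright in both genotypes, with Alb at 17659 ± 1105 in knock-in and 17221 ± 643 in wild-type liver. Of 11 tested, 2 fell and 1 rose (summed intensity 128146 to 138401 in knock-in and 133092 to 139643 in wild-type mice), and neither fall was called when any mouse other than KI3 was left out. Of 13 markers of pericentral hepatocytes, 9 fell and 1 rose (median -0.92), and their sum lay between 44233 and 47262 in knock-in and between 60581 and 64977 in wild-type mice. They included Gulo, of ascorbate synthesis (-1.17 ± 0.12), the ammonium transporter gene Rhbg (-1.68 ± 0.20), the transcription factor gene Tbx3 (-1.38 ± 0.20) and Cyp1a2 (-2.36 ± 0.41). The pericentral falls numbered 6 when KI1 was left out, 7 when WT2 was, and 8 when KI3, WT4 or WT6 was. The marker that rose, Oat, passed without KI3 but not without any other mouse (adjusted p = 0.0611 to 0.146). Of 11 markers of periportal hepatocytes, 6 rose and 2 fell (median 0.29). The rises numbered 4 when KI1, KI5, WT2 or WT4 was left out and 5 when WT6 was, and the falls numbered 1 when KI1 or any single wild-type mouse was left out. Their sum lay between 79478 and 81289 in knock-in and between 72377 and 77946 in wild-type mice. The urea cycle genes Asl (0.90 ± 0.13) and Arg1 (0.42 ± 0.08) and the lipid droplet gene Hsd17b13 (0.74 ± 0.09) rose, and Cyp2f2 fell (-1.15 ± 0.19). The part of zone markers in the changes of the dehydrogenases was not tested. In bulk tissue, fewer cells of a type and less RNA per cell cannot be told apart.

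Markers of other cell types are given by counts of calls and by summed intensity. Of 11 markers of sinusoidal endothelial cells, 6 fell and 1 rose, with sums of 7299 to 9629 in knock-in and 9312 to 9934 in wild-type mice. Without KI1 or WT2 the count of falls was 2, without WT6 it was 1, and the rise was lost without KI5 (adjusted p = 0.0661). Of 12 markers of stellate cells 2 fell and 1 rose (sums 10956 to 12903 in knock-in and 10807 to 11852 in wild-type mice). Lrat, of retinol storage, is the gene that this list shares with the retinol list. The count of falls was 5 when KI3 was left out, 3 when WT4 was, and 1 when any single other mouse was. Of 12 Kupffer cell and macrophage markers 1 was lower (sums 4106 to 7287 in knock-in and 6250 to 11009 in wild-type mice), a call that was lost when KI1, KI5, WT2 or WT4 was left out (adjusted p = 0.0870 to 0.127). The count of falls was 3 when KI3 or WT6 was left out, and 1 other marker was called higher when KI5 was. Of 7 neutrophil markers 4 rose (sums 675 to 705 in knock-in and 479 to 562 in wild-type mice). These 4 had knock-in means of 71.0 to 93.3, below the array medians of 97.0 to 104. The other 3 did not pass, among them Ly6g, at 39.3 in knock-in and 40.7 in wild-type liver. Of 6 lymphocyte markers 1 fell (sums 488 to 540 in knock-in and 558 to 615 in wild-type mice), and 2 fell without KI3. Of 2 erythroid markers 1 fell (sums 265 to 383 in knock-in and 426 to 564 in wild-type mice), a call lost without WT2 or WT6. By limma 0 of 6 cholangiocyte markers were called, and 0 had an unadjusted p below 0.05 (sums 534 to 566 in knock-in and 520 to 555 in wild-type mice). Sums are over all markers of a list that have a probe set, and the part of these cells in the changes of the dehydrogenases was not tested.

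The medians of the 6 arrays ranged over 97.0 to 104, or 0.10 on the log2 scale, and no arrays held identical values. Lmna was read by 1 probe set that does not tell normal from aberrant splicing and so does not check the genotype. It gave 290, 249 and 258 in knock-in livers, against 282, 267 and 362 in wild-type ones (log2 change -0.17 ± 0.13, SE; limma adjusted p = 0.398). Of all calls, 57.8% were higher in knock-in liver, and 47.8% with centred arrays.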

How the data were processed

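Each liver was hybridised to 1 array. The authors deposited whole-number intensity values, unlogged, for 35512 probe sets per array. No source used here gives their summary, background or normalization steps. Per the labels' protocols, RNA was purified with an RNeasy kit and labelled by in vitro transcription. Arrays have no read depth, and 3 per genotype is what limits precision. Tests measure the spread between separate mice.

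Names came from the platform annotation, which can be old. It gave 1 symbol to 21789 probe sets and several to 1621, and did not list 12102. All 10 members' symbols matched RefSeq by gene identifier. Coordinates are printed for RefSeq promoter windows (GRCm38.p6) alone, since no source used here names the build behind the probe sets.

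The values were taken as log2(value + 16), which understates changes of dim genes. Probe sets with a mean at or above the 25th percentile (26664) entered limma 3.58.1 under R 4.3.3, using a linear fit and trended eBayes moderation. Differences are knock-in minus wild-type, p-values were adjusted over all 26664 by Benjamini-Hochberg, and calls need an adjusted p below 0.05. Where a gene had several probe sets, the brightest stood for it. Isozyme pairs were compared by exact permutation. The fit was tested on simulated data.

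The genes named by rule are the members, Lmna, the 3 genes most like Adh4, and up to 4 of each further list by smallest p among called genes, then others. Zone and cell type lists beyond the hepatocyte zones are given by counts, with Lrat and Ly6g named besides. The 20 lists held 244 genes. Members, lists and alternatives were chosen with earlier results of these data known. As alternatives, the pseudocount was 1 or 64, arrays were quantile-normalized or centred on their medians, and the filter was dropped or raised to the 50th percentile. Others were eBayes untrended or robust, array weights, an adjusted p of 0.1, a 1.5-fold minimum, the mean over a gene's probe sets, and each mouse left out.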

Additional observations from a re-analysis of the deposited data

How the results depend on the processing

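The falls of Adh4 (log2 change -2.89 to -2.36), Aldh3a2 (-1.88 to -1.51), Aldh1b1 (-1.65 to -1.31) and Aldh9a1 (-1.29 to -0.84) kept their direction and call in the 16 alternatives run for each. The smaller changes did not. With quantile normalization 52.4% of all calls were higher, and Adh6a was at -0.045, Adh7 at -0.036 and Aldh1l2 at -0.019. With centred arrays that share was 47.8%, 0 members were called higher, Adh1 (-0.24) was called, Aldh1l1 (0.24) was not, and Adh5, Adh6a, Adh7 and Aldh1l2 were at -0.045, -0.042, -0.045 and -0.024. With no filter, or with eBayes without trend, Aldh1l1 (0.29 in both) was not called, leaving 0 members higher. With the filter at the 50th percentile Adh1 (-0.19) was called. With array weights Adh1 (-0.19) was called, 1 other family gene was higher, and Adh5 was at -0.015 and Adh7 at -0.0068. At a 1.5-fold minimum 3862 probe sets, 0 members as higher and 6 markers as higher were called, and at an adjusted p of 0.1, 1 other family gene was higher. With 1 mouse left out, 4258 to 7759 probe sets were called, 0 to 1 members and 0 to 1 other family genes were higher, and 29 to 51 pathway genes and 12 to 33 markers were lower. The log2 changes then ran from -0.22 to -0.15 for Adh1, -0.11 to 0.12 for Adh5, 0.24 to 0.36 for Aldh1l1, -0.27 to -0.22 for Aldh2, -0.36 to -0.27 for Aldh7a1, -0.022 to 0.059 for Adh6a, -0.10 to 0.10 for Adh7, -0.010 to 0.072 for Aldh1l2, -0.0071 to 0.14 for Aldh3a1 and -0.18 to 0.030 for Aldh3b2. Leaving a mouse out leaves fewer samples, and the cause of the other shifts was not tested. No paired analysis was possible because the knock-in and wild-type mice share no replicate numbers. With 3 arrays a group, a small change such as that of Adh1 lies near what the spread between mice allows to be called. That of Aldh8a1 was not called under any alternative (lowest limma adjusted p 0.138). Dim probe sets lie closer to background.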
